A study of Mus musculus with 34 samples.

Results

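Transcripts of the mitochondrial genome were followed through 10 named genes out of 27179 gene identifiers in the count tables. The 10 are the ribosomal RNA genes mt-Rnr1 (12S) and mt-Rnr2 (16S), the complex I genes ND1, ND2, ND4, ND5 and ND6, the complex III gene CYTB and the complex IV genes COX1 and COX2. They were matched by numeric gene identifier to the GRCm38.p6 annotation, not by level. That annotation holds 37 mitochondrial genes, of which 15 had a row, namely both rRNA genes and all 13 mRNA genes, while 0 of 22 tRNA genes had one.

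The libraries were 3-prime RNA-seq of sorted CD4 T cells from C57BL/6 mice, activated as naive cells on plate-bound antibodies against CD3 and CD28 and grown for several days in culture. TfhA_4e4 had 5 libraries and Tfh5_4e4 had 6, and code Tfh2 was sampled at 4 numbers, as Tfh2_1e4 (6 libraries), Tfh2_2e4 (5), Tfh2_4e4 (6) and Tfh2_6e4 (6), 34 libraries in all. Neither the codes, the number, the gate of the sort nor the age of the mice is explained in the labels, and nothing there says that replicates came from separate animals. The series title names TGF-β, c-Maf and the TFH and TH17 fates, and no group label is tied to them.

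Mitochondrial DNA is transcribed from both strands into long precursors, which are cut mainly at the tRNAs that lie between the other genes. The rRNAs build the mitochondrial ribosome, which translates only the mRNAs of this genome, and these encode core subunits of respiratory complexes I, III and IV and of ATP synthase. All other subunits, and every protein that copies, transcribes or processes mitochondrial DNA and RNA, come from nuclear genes, and T cells enlarge their mitochondria when they are activated.

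Total counts ran from 4481509 to 9934245 per library, and the 2 identifiers with the most counts took 39.2% to 53.8% of them. A share below is a gene's percentage of the counts outside this pair, which numbered 2292557 to 5343465 per library. The 11 T cell identity genes on the list all had counts, at a summed level of 4055 to 5999.9 CPM outside the pair, whereas summed B cell, myeloid and erythroid markers reached at most 4.36 CPM in any library, with all 3 erythroid globin genes at 0. CD8 T cell markers summed to 6.96 to 29.3 CPM, and NK and gamma delta T cell markers to 7.88 to 42.0 CPM. These marker sums are on the same base as the percentages. In these bulk samples, more cells with much of a transcript and more RNA per cell cannot be told apart, and a share also moves when other transcripts change.

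The library kit primes at poly(A), so where a gene's counted reads can come from depends on its 3-prime end, which is why these ends are shown. The last 60 bases of the annotated GENCODE M21 transcripts (GRCm38, mitochondrial chromosome) are printed 5′ to 3′ below, with the last codon, or the part of it that the DNA encodes, in capitals. mt-Rnr1 is at chrM:70-1024, mt-Rnr2 at chrM:1094-2675, ND1 at chrM:2751-3707, COX1 at chrM:5328-6872, ND4 at chrM:10167-11544 and CYTB at chrM:14145-15288, all on the plus strand, and ND6 is at chrM:13552-14070 on the minus strand.
mt-Rnr1: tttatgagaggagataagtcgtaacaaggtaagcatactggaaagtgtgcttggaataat
mt-Rnr2: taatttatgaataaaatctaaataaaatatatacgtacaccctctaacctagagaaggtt
ND1: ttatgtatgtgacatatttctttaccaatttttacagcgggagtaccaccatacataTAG
COX1: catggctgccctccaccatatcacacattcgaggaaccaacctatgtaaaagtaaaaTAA
ND4: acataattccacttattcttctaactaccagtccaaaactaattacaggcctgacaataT
CYTB: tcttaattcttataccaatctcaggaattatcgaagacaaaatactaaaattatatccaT
ND6: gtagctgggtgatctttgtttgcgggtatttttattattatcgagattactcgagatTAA

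ND4 and CYTB, with 1378 and 1144 bases, end 1 base past a whole codon, and their stop codon is completed only by the added A tail. The 3-prime end of ND6 overlaps that of ND5, which lies on the opposite strand at chrM:11742-13565, by 14 bases, and the strand setting of the counting is not given, so reads at these ends cannot be assigned to one gene with certainty. Runs of 6 or more A on the transcript strand, AAAAAA, can also be primed within a transcript. Within their last 500 bases, 4 of the 10 genes hold such a run (mt-Rnr2, ND1, ND2 and ND5), as do 25.2% of 53467 nuclear protein-coding transcripts of at least 500 bases. mt-Rnr1, COX2, ND6 and CYTB hold none at any position. The longest runs in the 2 members described most below, of 7 A each, are shown in capitals in 60 bases, for mt-Rnr2 at chrM:1462-1521, 1181 bases before its end, and for COX1 at chrM:6090-6149, 750 bases before its end.
mt-Rnr2: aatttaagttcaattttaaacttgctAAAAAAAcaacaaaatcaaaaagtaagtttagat
COX1: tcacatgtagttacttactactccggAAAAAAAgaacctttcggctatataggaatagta

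The second feature that bears on the counts is the set of nuclear copies of mitochondrial DNA. Over all libraries mt-Rnr2 had 9495658 counts, mt-Rnr1 3886881, ND1 618263, ND2 556018, ND4 495286, CYTB 411158, COX1 294218, ND5 132550 and ND6 74999, while COX2, a core subunit that receives electrons from cytochrome c, had 0 in all 34 libraries. A count of 0 allows COX2 up to 0.0226 CPM outside the pair over all libraries, taking 3 counts as the limit and covering counting error only. Against the non-mitochondrial transcripts of GENCODE M21, the first 681 of the 684 bases of COX2 were identical to the pseudogene Gm28661 (chr1:24614885-24615565, minus strand).

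The same stretch of chromosome 1 holds identical copies of ATP6 (678 of 681 bases), COX3 (783 of 784) and ND4L (294 of 297), which had 8, 0 and 1 counts over all libraries. ND3, whose copy Gm28438 differs only by T3C over 345 bases (positions from 1 at the first base of the gene, the gene's base first), had 1122 counts. ATP8 also had 0 counts, and no copy of it in that stretch is annotated as a transcript. The 3-prime end of ATP8 (chrM:7766-7969) lies within ATP6 (chrM:7927-8607), and that of ND4L (chrM:9877-10173) within ND4, all on the plus strand. Counts of ATP8 and ND4L therefore cannot be read as those of genes with a separate 3-prime end, and the part of this overlap in them was not tested. Among the 9 members with counts, the stretch covers only the first 876 bases of ND4, leaving the last 502 bases, and the last 483 bases of COX1. COX1 and its copy Gm29216 (chr1:24615706-24616197, minus strand) differ there at A1066T, so the last 479 bases of COX1 are identical to the copy. The 60 bases around that difference, at chrM:6390-6449 and chr1:24616129-24616188, carry it in capitals.
COX1: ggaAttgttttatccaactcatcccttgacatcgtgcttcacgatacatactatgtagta
Gm29216: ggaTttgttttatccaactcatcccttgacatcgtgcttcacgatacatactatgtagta

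The best other copies were less alike, from 97.6% identity over 1545 bases for COX1 (Gm13340, chromosome 2) and 96.7% over 510 bases for ND2 (Gm13339) to 76.6% over 509 bases for ND1, and no copy of mt-Rnr1 was found. How reads that fit several places were counted is not given in the sources used here. Whether this accounts for the counts of 0 was not tested. The run of 7 A in COX1 lies upstream of the stretch shared with its copy, and which part of COX1 the counted reads cover is not known from these tables.

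**Figure D1:**
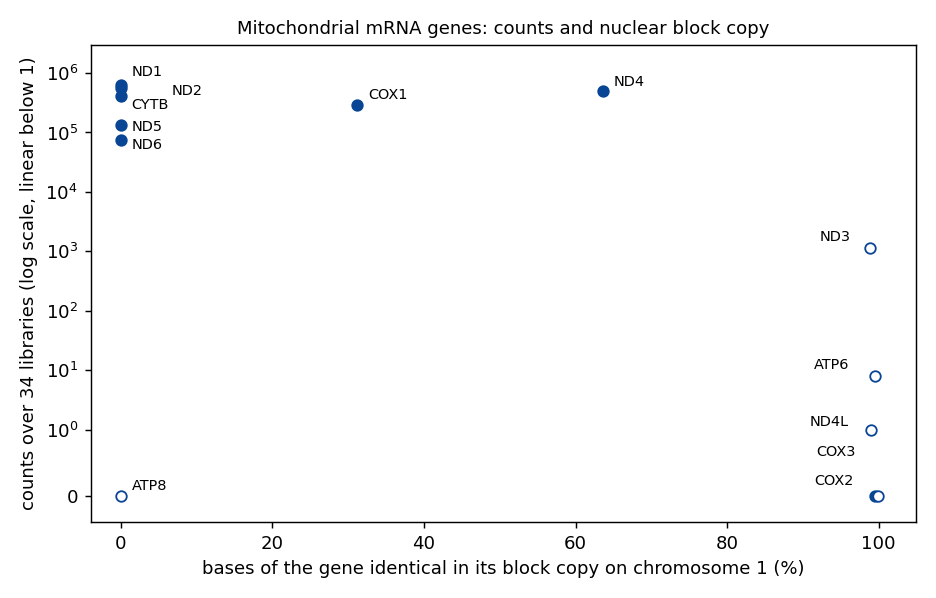
Counts summed over 34 libraries (vertical, log scale, linear below 1) of the 13 mitochondrial mRNA genes against the percentage of each gene's bases that are identical in its copy within the chromosome 1 stretch (horizontal, 0 where none is annotated); filled points are members and open points other genes. COX2, COX3, ATP6 and ND4L, at 98.99% or more, have 0 to 8 counts, ND3 has 1122, and the other genes except ATP8 have 74999 or more.

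In the mean over all libraries mt-Rnr2 held 59.5% of the 10 members' counts and mt-Rnr1 24.5%, and the mt-Rnr2 to mt-Rnr1 count ratio averaged between 2.41 and 2.53 in every group. With 3-prime counting a longer gene does not gain counts, so these shares need no length correction, although internal priming and the copies described above can shift them. By group mean the sum of the 10 members was 17.5% ± 2.7 of counts in TfhA_4e4 and 11.5% ± 1.5 in Tfh5_4e4, and 10.5% ± 1.8, 11.4% ± 1.1, 11.6% ± 1.2 and 11.8% ± 1.4 in Tfh2_1e4, Tfh2_2e4, Tfh2_4e4 and Tfh2_6e4 (SD, n = 5, 6, 6, 5, 6 and 6).

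**Figure D2:**
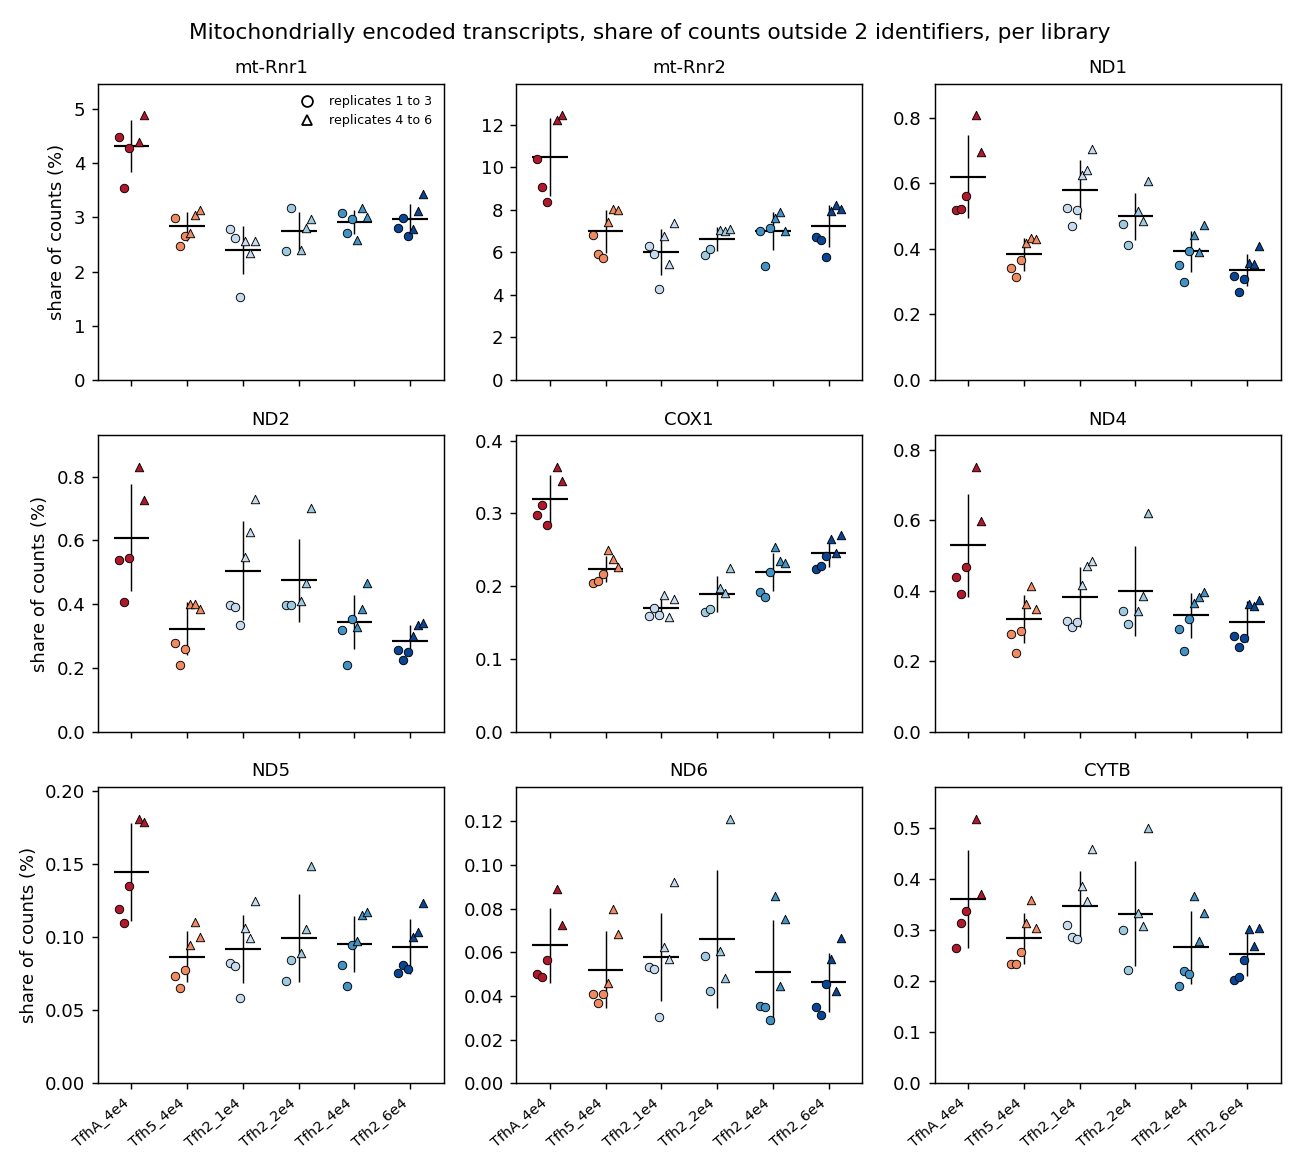
Share of counts outside the 2 identifiers (%) of each of the 9 members with counts, 1 point per library, by group, with circles for replicates 1 to 3 and triangles for replicates 4 to 6; horizontal lines are group means and vertical lines ± 1 SD. TfhA_4e4 libraries lie above all Tfh2_4e4 libraries for mt-Rnr1, mt-Rnr2, ND1 and COX1, and along the Tfh2 number COX1 climbs while ND1 and ND2 decline.

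The codes were compared at the number they share. Mitochondrial transcripts were higher in TfhA_4e4 than in Tfh2_4e4 for 8 of the 9 members tested, with fitted log2 fold changes of 0.45 to 0.85, against a background in which 15.5% of the 11357 genes tested were called higher and 32.8% changed in either direction (edgeR quasi-likelihood F-test, Benjamini-Hochberg adjusted p under 0.05). The median log2 fold change of the 9 members was 0.60, and over all genes tested it was -0.01. Both rRNAs, the complex I mRNAs ND1, ND2, ND4 and ND5, CYTB and COX1 passed, and ND6 did not. Compared with Tfh5_4e4, 7 of 9 members were higher in TfhA_4e4, where the background was 19.1% called higher and 39.5% in either direction. Both comparisons use the same TfhA_4e4 libraries, so they are not independent of each other.

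mt-Rnr2, the RNA of the large mitochondrial ribosomal subunit, took 10.4%, 9.06%, 8.37%, 12.2% and 12.4% of counts in TfhA_4e4 replicates 1, 2, 3, 5 and 6. It ran from 5.72% through a median of 7.10% to 8.05% in Tfh5_4e4, and from 5.36% through 7.08% to 7.89% in Tfh2_4e4. Every TfhA_4e4 library exceeded every library of the other codes, with replicate 3 the closest to them. The log2 fold change was 0.60 with a standard error (SE) of 0.13 against Tfh2_4e4 (edgeR adjusted p = 0.000213), and 0.62 with an SE of 0.13 against Tfh5_4e4 (edgeR adjusted p = 0.000106).

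mt-Rnr1, the RNA of the small subunit, had shares of 4.49%, 3.55%, 4.28%, 4.39% and 4.88% in TfhA_4e4. The lowest, median and highest shares were 2.47%, 2.84% and 3.14% in Tfh5_4e4, and 2.58%, 2.99% and 3.16% in Tfh2_4e4. The groups did not overlap here either. The log2 fold change of mt-Rnr1 in TfhA_4e4 was 0.58 over Tfh2_4e4 (SE 0.11, edgeR adjusted p = 6.69e-05) and 0.64 over Tfh5_4e4 (SE 0.11, edgeR adjusted p = 1.1e-05).

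COX1, the catalytic subunit of cytochrome c oxidase, made up 0.298%, 0.312%, 0.284%, 0.363% and 0.344% of counts in TfhA_4e4. Its shares were 0.204%, 0.221% and 0.249% (lowest, median, highest) in Tfh5_4e4 and 0.185%, 0.225% and 0.254% in Tfh2_4e4. TfhA_4e4 stood clear of both other codes. The log2 fold change was 0.56 (SE 0.10) against Tfh2_4e4 (edgeR adjusted p = 8.75e-06) and 0.55 (SE 0.10) against Tfh5_4e4 (edgeR adjusted p = 8.67e-06).

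ND1, a membrane subunit of complex I at the site where ubiquinone binds, had shares of 0.518%, 0.520%, 0.561%, 0.807% and 0.695% in TfhA_4e4. They were 0.314%, 0.392% and 0.433% (lowest, median, highest) in Tfh5_4e4 and 0.298%, 0.392% and 0.473% in Tfh2_4e4. No library of TfhA_4e4 fell within either of these 4e4 ranges. At another number, Tfh2_1e4 overlapped TfhA_4e4 in ND1, with 0.469% to 0.704% and a mean of 0.580% against 0.620%. The log2 fold change of ND1 in TfhA_4e4 was 0.68 (SE 0.13) against Tfh2_4e4 (edgeR adjusted p = 5.42e-05) and 0.73 (SE 0.13) against Tfh5_4e4 (edgeR adjusted p = 1.48e-05).

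ND2, a membrane-arm subunit of complex I, had the largest fitted difference of the members in both comparisons, with shares of 0.538%, 0.406%, 0.544%, 0.830% and 0.728% in TfhA_4e4. The range was 0.210% to 0.400% with a median of 0.333% in Tfh5_4e4, and 0.208% to 0.465% with a median of 0.342% in Tfh2_4e4. TfhA_4e4 replicate 2 lay inside the Tfh2_4e4 range and just above the highest Tfh5_4e4 library. The log2 fold change was 0.85 (SE 0.20) against Tfh2_4e4 (edgeR adjusted p = 0.000726) and 0.95 (SE 0.20) against Tfh5_4e4 (edgeR adjusted p = 0.000129).

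In all, 4 members did not overlap between TfhA_4e4 and Tfh2_4e4 (mt-Rnr1, mt-Rnr2, ND1 and COX1), where 8.99% of genes were higher without overlap. Against Tfh5_4e4 ND2 joined them, making 5 members, beside 11.9% of genes. These statements hold at 4e4 only. In Tfh2_1e4 the mean shares were 0.504% for ND2 and 0.348% for CYTB, against 0.609% and 0.361% in TfhA_4e4. ND4 and ND5, which like ND2 are membrane-arm subunits of complex I, overlapped between the codes but passed the test.

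ND4 had shares of 0.440%, 0.390%, 0.467%, 0.750% and 0.597% in TfhA_4e4, against a range of 0.224% to 0.413% in Tfh5_4e4 and of 0.228% to 0.396% in Tfh2_4e4. The log2 fold change of ND4 was 0.70 (SE 0.18) against Tfh2_4e4 (edgeR adjusted p = 0.00189) and 0.77 (SE 0.18) against Tfh5_4e4 (edgeR adjusted p = 0.00055). Only TfhA_4e4 replicate 2 reached down into the other ranges.

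ND5 had shares of 0.119%, 0.110%, 0.135%, 0.181% and 0.179% in TfhA_4e4, against 0.0653% to 0.110% in Tfh5_4e4 and 0.0670% to 0.117% in Tfh2_4e4. The differences on the log2 scale were 0.62 (SE 0.18) from Tfh2_4e4 (edgeR adjusted p = 0.00653) and 0.77 (SE 0.18) from Tfh5_4e4 (edgeR adjusted p = 0.000572). Again the lowest TfhA_4e4 value, that of replicate 2, met the top of the other groups.

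CYTB, the only mitochondrially encoded subunit of complex III, had shares of 0.265%, 0.314%, 0.337%, 0.519% and 0.373% in TfhA_4e4. The ranges were 0.235% to 0.359% in Tfh5_4e4 and 0.191% to 0.367% in Tfh2_4e4, and 3 of the 5 TfhA_4e4 libraries lay within the Tfh2_4e4 range. Its log2 fold change against Tfh2_4e4 was 0.45 (SE 0.18, edgeR adjusted p = 0.0421). The call was lost without any one of Tfh2_4e4 replicates 1, 2 or 3 or TfhA_4e4 replicates 5 or 6 (edgeR adjusted p of 0.0706 to 0.262) and in DESeq2 (adjusted p = 0.0597). It was also lost, at 0.43, when library scaling was computed without the 2 identifiers and the mitochondrial genes (edgeR adjusted p = 0.0504). Against Tfh5_4e4 the log2 fold change was 0.38 (SE 0.18, edgeR adjusted p = 0.0786), which passed without Tfh5_4e4 replicate 5 (edgeR adjusted p = 0.0421) or without TfhA_4e4 replicate 1 (edgeR adjusted p = 0.028). It also passed with the replicate range (1 to 3 or 4 to 6) as a factor, at 0.42 (edgeR adjusted p = 0.000339), and within replicates 1 to 3 alone (edgeR adjusted p = 0.0201) and 4 to 6 alone (edgeR adjusted p = 0.0217).

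ND6, the only member on the other strand, had shares of 0.0499%, 0.0489%, 0.0565%, 0.0890% and 0.0725% in TfhA_4e4. They lay between 0.0369% and 0.0797% in Tfh5_4e4 and between 0.0290% and 0.0860% in Tfh2_4e4, so the groups overlapped widely. The log2 fold change was 0.34 (SE 0.26, edgeR adjusted p = 0.353) against Tfh2_4e4 and 0.32 (SE 0.26, edgeR adjusted p = 0.355) against Tfh5_4e4. ND6 was also the member that differed most between replicates 4 to 6 and 1 to 3. With that range as a factor it was higher in TfhA_4e4 than in Tfh2_4e4 by 0.45 (edgeR adjusted p = 0.0349), and with replicates 1 to 3 alone by 0.64 (edgeR adjusted p = 0.00778). With replicates 4 to 6 alone it was not called. Its shares there were 0.0725% to 0.0890% in TfhA_4e4 (n = 2), overlapping 0.0445% to 0.0860% in Tfh2_4e4 (n = 3). ND6 per 100 counts of the other mRNA members was 2.43 ± 0.11 in TfhA_4e4, 3.17 ± 0.63 in Tfh5_4e4 and 3.01 ± 1.01 in Tfh2_4e4 (SD, n = 5, 6 and 6).

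Tfh5_4e4 and Tfh2_4e4 gave 0 of 9 calls among the members, where 3.11% of all genes were called, and 0 of 9 had an unadjusted p under 0.05. DESeq2 and limma-voom also called 0. The fitted log2 fold changes ran from -0.15 (ND5, SE 0.17, edgeR adjusted p = 0.763) to 0.07 (CYTB, SE 0.17, edgeR adjusted p = 0.91). For the rRNAs and COX1 they were -0.06, -0.02 and 0.01 with SEs of 0.11, 0.12 and 0.09. The SE for ND6 was 0.25.

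**Figure D3:**
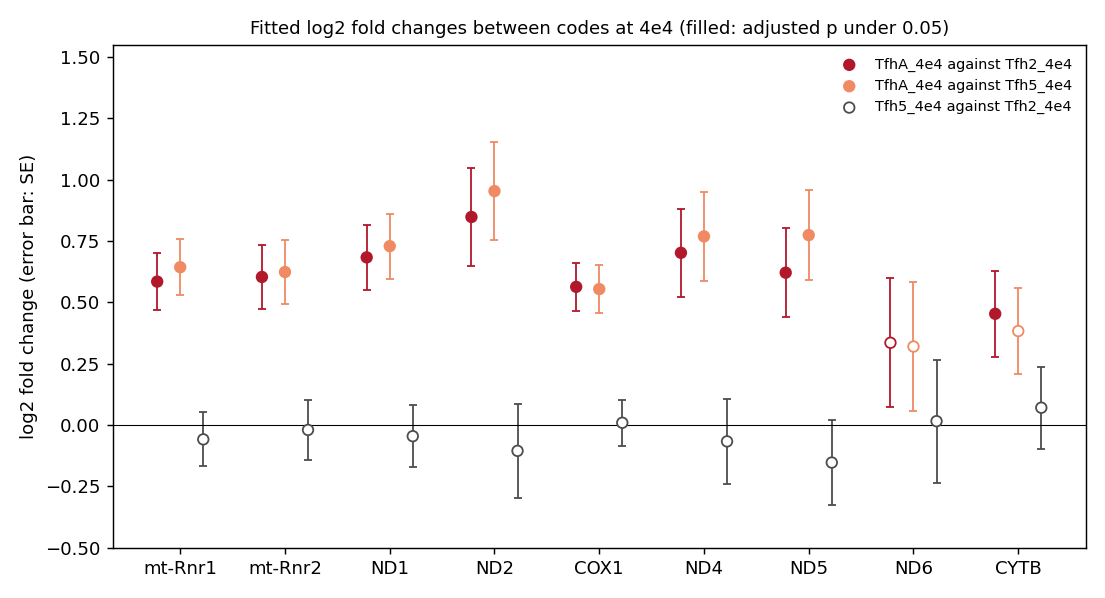
Fitted log2 fold change ± SE of the 9 members tested in the 3 comparisons of codes at 4e4, filled where the edgeR adjusted p was under 0.05. The TfhA_4e4 comparisons lie between 0.32 and 0.95, and Tfh5_4e4 against Tfh2_4e4 lies between -0.15 and 0.07.

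The proportion of mRNA to rRNA counts differed little among the codes. mRNA members per 100 rRNA counts were 17.8 ± 2.4 in TfhA_4e4, 17.0 ± 1.6 in Tfh5_4e4 and 17.1 ± 2.4 in Tfh2_4e4 (SD, n = 5, 6 and 6), differences smaller than the SD of any of the groups. Within the mRNA members, ND1 held 23.5%, 23.1% and 23.2% and COX1 12.4%, 13.6% and 13.1% of the counts in these groups. CYTB held less in TfhA_4e4, between 11.9% and 15.0%, against 16.2% to 18.2% in Tfh5_4e4 without overlap and 13.0% to 18.9% in Tfh2_4e4 with overlap. ND2 held 22.8% ± 2.0 in TfhA_4e4, 19.1% ± 1.9 in Tfh5_4e4 and 20.1% ± 2.6 in Tfh2_4e4.

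Other measures moved with TfhA_4e4. RNAs that stay in the nucleus (Malat1, Neat1, Kcnq1ot1 and Meg3) summed to 3368 to 4475 CPM in TfhA_4e4, 1265 to 1979 in Tfh5_4e4 and 1336 to 2414 in Tfh2_4e4. Malat1 was 1.08 higher than in Tfh2_4e4 on the log2 scale (edgeR adjusted p = 1.39e-09) and Kcnq1ot1 1.59 higher (edgeR adjusted p = 2.65e-11), while Neat1 did not pass, at -0.28 (edgeR adjusted p = 0.565). T cell identity genes summed to 4055 to 4349 CPM in TfhA_4e4, against 5251 to 5747 in Tfh5_4e4 and 5244 to 5914 in Tfh2_4e4, and 0 of 11 were higher and 6 lower than in Tfh2_4e4. The part of RNA quality or cell makeup in the higher mitochondrial shares was not tested.

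Nuclear genes that serve the mitochondrial genome did not move as one with its transcripts. Of 15 tested genes for transcription and replication of mitochondrial DNA, 1 was higher and 2 were lower in TfhA_4e4 than in Tfh2_4e4 (median log2 fold change 0.16), where 15.5% of all genes were higher and 17.4% lower. The mitochondrial DNA helicase Twnk differed by -0.82 on the log2 scale (edgeR adjusted p = 0.0012) and Polg, the catalytic subunit of the mitochondrial DNA polymerase, by -0.67 (edgeR adjusted p = 0.0026). Mterf2, of the mitochondrial transcription termination factor family, was 0.60 higher (edgeR adjusted p = 0.0341), a call lost without any one of Tfh2_4e4 replicates 1, 2 or 4 or TfhA_4e4 replicates 3, 5 or 6 (edgeR adjusted p of 0.053 to 0.104).

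Among 21 tested genes of mitochondrial RNA processing and stability, 4 were higher and 4 lower (median 0.06), near the 15.5% higher and 17.4% lower of all genes. Prorp, the nuclease subunit of mitochondrial RNase P, had a log2 fold change of -1.11 (edgeR adjusted p = 0.00048), and Fastkd2, an RNA-binding protein that acts on mitochondrial rRNA, was 0.82 higher (edgeR adjusted p = 0.0121). With replicates 4 to 6 alone neither passed (edgeR adjusted p = 0.159 for Prorp and 0.299 for Fastkd2), and with replicates 1 to 3 alone neither Twnk (0.0594) nor Polg (0.275) did. Of 13 rRNA modification and assembly genes only the helicase Ddx28 changed, with a log2 fold change of -0.62 (edgeR adjusted p = 0.0203), lost without Tfh2_4e4 replicate 1 (edgeR adjusted p = 0.115) or TfhA_4e4 replicate 5 (edgeR adjusted p = 0.0637) and in limma-voom (adjusted p = 0.0616). Of 7 regulators of mitochondrial biogenesis only Myc changed, with a log2 fold change of -1.25 (edgeR adjusted p = 0.00438), which was -0.38 with replicates 1 to 3 alone (edgeR adjusted p = 0.468).

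More nuclear-encoded partners in the complexes were called higher than lower, beside 15.5% of all genes higher and 17.4% lower. Of 35 tested complex I subunits 9 were higher and 2 lower in TfhA_4e4 than in Tfh2_4e4, with Ndufab1 0.53 higher (edgeR adjusted p = 0.00502, but 0.25 and 0.456 with replicates 1 to 3 alone) and Ndufb11 at -0.55 (edgeR adjusted p = 1.12e-05). Complex III had 2 higher (Uqcr10 at 0.61, edgeR adjusted p = 5.51e-05) and 1 lower (Uqcrfs1, the Rieske iron-sulfur protein, at -0.54, edgeR adjusted p = 0.00318, and 0.0685 with replicates 4 to 6 alone) of 8. Complex IV had 5 higher and 0 lower of 11, led by Ndufa4 at 0.96 (edgeR adjusted p = 4.11e-06). The lists' median log2 fold changes were 0.20, 0.12 and 0.22, against 0.60 for the 9 mitochondrial members.

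Against Tfh5_4e4 the same lists gave 14 higher and 4 lower of 35 for complex I, 3 and 1 of 8 for complex III, and 5 and 0 of 11 for complex IV, where 19.1% of all genes were higher and 20.4% lower. Of 15 genes for transcription and replication of mitochondrial DNA, 2 were higher and 2 lower, with log2 fold changes from -0.89 to 1.49. Polg had -0.89 (edgeR adjusted p = 5.81e-05). Primpol and Tfb1m were called higher. Primpol did not pass with replicates 1 to 3 alone (1.23, edgeR adjusted p = 0.165), nor Tfb1m with replicates 4 to 6 alone (1.28, edgeR adjusted p = 0.169). Of 21 RNA processing genes 1 was higher and 5 lower. Rexo2, which degrades short RNAs in mitochondria, had -0.73 (edgeR adjusted p = 3.09e-08). Hsd17b10, another subunit of mitochondrial RNase P, was 0.75 higher (edgeR adjusted p = 2.22e-06). Prorp was again lower, at -1.10 (edgeR adjusted p = 0.000468, and 0.074 with replicates 4 to 6 alone).

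Within Tfh2 the question was whether levels followed the number in the label. The mitochondrial transcripts split here. COX1, mt-Rnr1 and mt-Rnr2 rose with the number, ND1 and ND2 fell, and ND4, ND5, ND6 and CYTB did not pass. For the slope of log2 level per doubling of the number, 3 of 9 members were called higher and 2 lower, where the background was 24.1% higher and 22.8% lower, 46.9% in all (2737 and 2594 genes, and 2274 and 3324 when libraries were scaled by their totals outside both identifiers). The share of members called is near that background, so the count says nothing particular about them, and the values are given for their opposite directions within one genome.

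COX1 shares in Tfh2_1e4 had a lowest value, median and highest value of 0.158%, 0.165% and 0.188%. In Tfh2_2e4 the 5 libraries had 0.164%, 0.168%, 0.197%, 0.191% and 0.225%, in Tfh2_4e4 the values were 0.185%, 0.225% and 0.254%, and in Tfh2_6e4 0.223%, 0.243% and 0.270%. Neighbouring numbers overlapped, but all 6 Tfh2_6e4 libraries lay above all 6 Tfh2_1e4 libraries. The slope was 0.25 per doubling (SE 0.03, edgeR adjusted p = 2.73e-08), and the log2 fold change of Tfh2_6e4 over Tfh2_1e4 was 0.66 (SE 0.09; edgeR adjusted p = 1.37e-07).

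ND1 went the other way, with 0.469%, 0.575% and 0.704% (lowest, median, highest) in Tfh2_1e4. The 5 Tfh2_2e4 libraries had 0.475%, 0.411%, 0.516%, 0.485% and 0.608%, and the lowest, median and highest values were 0.298%, 0.392% and 0.473% in Tfh2_4e4 and 0.268%, 0.334% and 0.410% in Tfh2_6e4. All Tfh2_6e4 libraries were below all Tfh2_1e4 libraries. The slope was -0.26 per doubling (SE 0.05, edgeR adjusted p = 6.36e-06), and the log2 fold change of Tfh2_6e4 against Tfh2_1e4 was -0.67 (SE 0.13, edgeR adjusted p = 2.89e-05).

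For groups without overlap between these 2 numbers, COX1 was the 1 member higher, beside 10.5% of genes, and ND1 the 1 member lower, beside 14.5% of genes. By the test, 5 of 9 members changed between Tfh2_6e4 and Tfh2_1e4, 3 higher and 2 lower, where 43.0% of all genes changed, 22.3% higher and 20.7% lower.

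ND2 showed the same fall with more spread. It had 0.334%, 0.473% and 0.729% (lowest, median, highest) in Tfh2_1e4 and 0.399%, 0.399%, 0.411%, 0.466% and 0.703% in the 5 libraries of Tfh2_2e4, then 0.208%, 0.342% and 0.465% in Tfh2_4e4 and 0.224%, 0.278% and 0.342% in Tfh2_6e4. Only 1 Tfh2_1e4 library lay within the Tfh2_6e4 range. The slope of ND2 was -0.28 (SE 0.07, edgeR adjusted p = 0.000682).

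The rRNAs rose less steeply. mt-Rnr1 had 1.52%, 2.56% and 2.78% (lowest, median, highest) in Tfh2_1e4, and 2.66%, 2.89% and 3.44% in Tfh2_6e4. mt-Rnr2 had 4.26%, 6.11% and 7.39% in Tfh2_1e4, and 5.80%, 7.32% and 8.24% in Tfh2_6e4. The groups overlapped in both genes, and replicate 3 was the lowest Tfh2_1e4 library in each. Slopes were 0.17 for mt-Rnr1 (SE 0.04, edgeR adjusted p = 0.000522) and 0.15 for mt-Rnr2 (SE 0.04, edgeR adjusted p = 0.00457), and both kept an edgeR adjusted p under 0.05 without any single library.

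The other 4 mRNAs lay between these courses. CYTB had group means of 0.348%, 0.333%, 0.268% and 0.255% from Tfh2_1e4 to Tfh2_6e4 and a slope of -0.14 (SE 0.06, edgeR adjusted p = 0.0532). That value crossed the threshold under most alternatives, with an edgeR adjusted p of 0.0247 to 0.0492 without any one of 12 libraries and 0.0395 in limma-voom. ND4 had a slope of -0.08 (edgeR adjusted p = 0.305), ND6 of -0.10 (0.391) and ND5 of 0.05 (0.506), with group means of 0.0919%, 0.0996%, 0.0954% and 0.0936% for ND5.

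**Figure D4:**
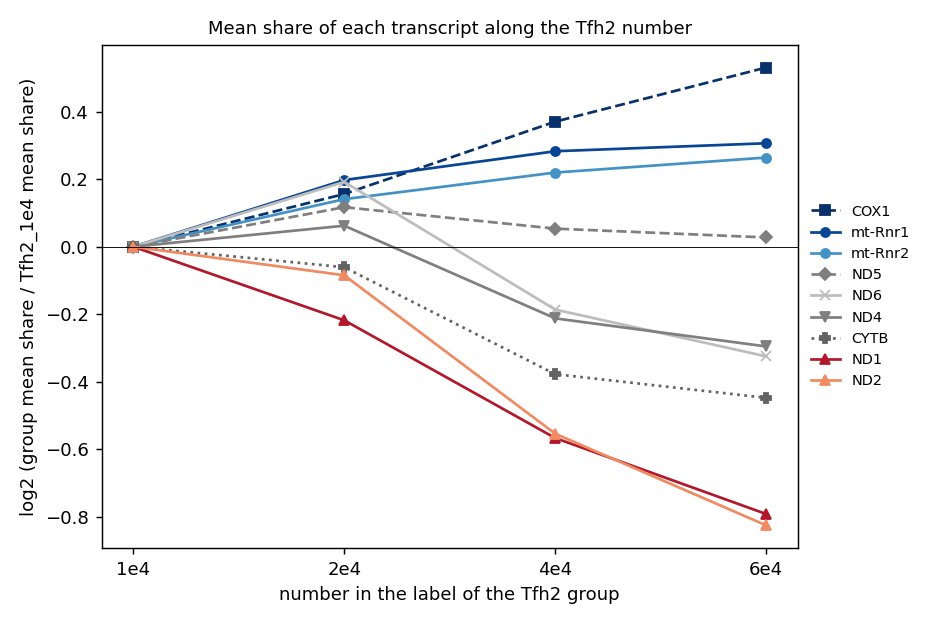
Log2 of each Tfh2 group's mean share over the Tfh2_1e4 mean share (vertical) against the number in the label (horizontal) for the 9 members. COX1 and both rRNAs lie above 0 at every later number, ND1, ND2 and CYTB below 0, and ND4 and ND6 cross from above to below.

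Single steps between neighbouring numbers were tested as well. Of 9 members 0 were called in Tfh2_2e4 against Tfh2_1e4, Tfh2_4e4 against Tfh2_2e4 or Tfh2_6e4 against Tfh2_4e4, where 5.26%, 13.0% and 1.48% of genes were called, and 0, 3 and 1 members had an unadjusted p under 0.05. COX1 differed by 0.18 (edgeR adjusted p = 0.374), 0.28 (0.0528) and 0.20 (0.368) in these steps, and ND1 by -0.20 (0.536), -0.28 (0.162) and -0.19 (0.593). The middle step of COX1 passed without Tfh2_2e4 replicate 6 (edgeR adjusted p = 0.0202) or without Tfh2_4e4 replicate 1 (0.0334) or 2 (0.0306), in DESeq2 (adjusted p = 0.0336) and in limma-voom (adjusted p = 0.033). With the replicate range (1 to 3 or 4 to 6) as a factor, the middle step was called for COX1 at 0.30 (edgeR adjusted p = 0.000845), ND1 at -0.25 (edgeR adjusted p = 0.0181) and ND2 at -0.35 (edgeR adjusted p = 0.0381).

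Ratios within the mitochondrial RNA, which do not depend on the scaling of libraries, showed the split directly. The mRNA members had 25.7 ± 4.5, 21.9 ± 4.3, 17.1 ± 2.4 and 15.4 ± 1.3 counts per 100 rRNA counts in Tfh2_1e4, Tfh2_2e4, Tfh2_4e4 and Tfh2_6e4 (SD, n = 6, 5, 6 and 6). The lowest Tfh2_1e4 library, at 20.2, was above the highest Tfh2_6e4 library, at 16.9. COX1 made up 8.17% ± 1.37, 9.35% ± 1.04, 13.1% ± 1.2 and 15.8% ± 1.4 of the mRNA members' counts. Its highest value in Tfh2_2e4, 10.3%, was below its lowest in Tfh2_4e4, 11.0%. ND1 made up 27.4% ± 1.8, 24.6% ± 2.3, 23.2% ± 1.1 and 21.4% ± 0.9.

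**Figure D5:**
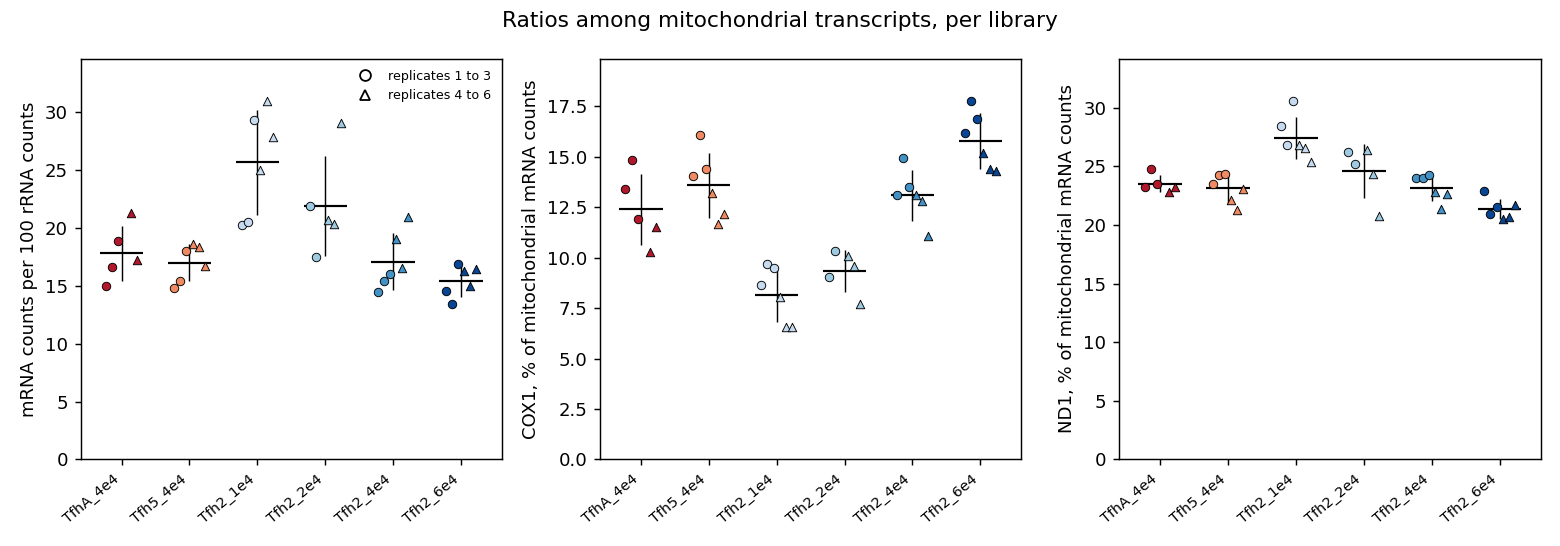
Counts of the mRNA members per 100 rRNA counts (left), and the percentage of mRNA member counts in COX1 (middle) and ND1 (right), 1 point per library, with group means and ± 1 SD. From Tfh2_1e4 to Tfh2_6e4 the first falls to a mean of 15.4, COX1 climbs to 15.8% and ND1 falls to 21.4%, while TfhA_4e4 and Tfh5_4e4 lie near Tfh2_4e4.

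Other measures moved along the number as well. The nuclear-retained RNAs were higher with it, 3 of 3 tested, with Malat1 at 0.30 per doubling (edgeR adjusted p = 1.09e-07), and their summed medians were 1355, 1475, 1999 and 2077 CPM in the 4 groups. With replicates 1 to 3 alone neither Neat1 (edgeR adjusted p = 0.448) nor Kcnq1ot1 (edgeR adjusted p = 0.459) passed, and Neat1 did not pass in limma-voom (adjusted p = 0.096). T cell identity genes had 7 higher and 2 lower of 11, where 24.1% of all genes were higher and 22.8% lower. The part of these in the members' slopes was not tested.

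More nuclear subunits of the same complexes were called lower than higher along the number, beside 24.1% of all genes called higher and 22.8% lower. Of 35 tested complex I subunits 3 were higher, 17 lower and the other 15 not called, with Ndufa5 at -0.33 per doubling (edgeR adjusted p = 3.02e-06) and Ndufb11 at 0.32 (edgeR adjusted p = 4.13e-11). In complex III 1 of 8 was higher (Uqcrh at 0.21, edgeR adjusted p = 5.23e-08) and 4 lower (Uqcrb at -0.22, edgeR adjusted p = 0.000197). In complex IV, where COX1 rose, 1 of 11 was higher (Cox7a2l at 0.27, edgeR adjusted p = 1.61e-06) and 7 lower, with Ndufa4 at -0.61 (edgeR adjusted p = 6.85e-13). The lists' median slopes were -0.11, -0.09 and -0.12, and that of all genes tested was -0.0027.

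Of the genes that act on mitochondrial DNA, 4 of 15 were higher along the number and 1 lower, where 24.1% of all genes were higher and 22.8% lower. Slopes in this list ran from -0.25 to 0.41 per doubling. Tfam, which packages mitochondrial DNA and starts its transcription, was the one lower, at -0.25 (edgeR adjusted p = 4e-06). Twnk was higher at 0.25 (edgeR adjusted p = 0.00175, and 0.0681 with replicates 1 to 3 alone). Top1mt was also called higher, but did not pass with replicates 1 to 3 alone, at 0.38 (edgeR adjusted p = 0.166). Of 21 RNA processing genes 7 were higher and 5 lower, with the RNase P subunit Hsd17b10 at 0.48 (edgeR adjusted p = 1.02e-12), the poly(A)-removing enzyme Pde12 at 0.33 (edgeR adjusted p = 1.98e-07) and Fastkd2 at -0.36 (edgeR adjusted p = 0.000806). Of 13 rRNA modification genes 2 were higher and 4 lower, among them the 16S rRNA methyltransferases Mrm1 at 0.54 (edgeR adjusted p = 4.89e-07) and Mrm3 at -0.56 (edgeR adjusted p = 0.000797). With replicates 4 to 6 alone Mrm3 had -0.32 (edgeR adjusted p = 0.256).

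Within groups, 8 of 9 members were higher in the replicates numbered 4 to 6 than in those numbered 1 to 3, where 9.64% of all genes were higher and 17.1% changed in either direction, so the codes and numbers were also compared within each set. For TfhA_4e4 against Tfh2_4e4, 9 members were called with replicates 1 to 3 alone and 8 with replicates 4 to 6 alone. Of the 11357 genes tested, 2264 and 2520 were called in these sets. mt-Rnr2 differed by 0.51 (edgeR adjusted p = 0.00803) and 0.76 (edgeR adjusted p = 3.44e-06). For the Tfh2 slope 3 members were higher and 3 lower in each set. Of all genes, 1967 were higher and 1729 lower with replicates 1 to 3 alone, and 2107 and 2132 with replicates 4 to 6 alone. COX1 had slopes of 0.24 and 0.26, ND1 of -0.25 and -0.27, and ND2 of -0.21 and -0.33, each with an edgeR adjusted p under 0.05 in both sets. Between Tfh2_6e4 and Tfh2_1e4 the rRNAs did not pass with replicates 1 to 3 alone (mt-Rnr1 edgeR adjusted p = 0.0637, mt-Rnr2 0.0744).

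Over the 34 libraries some members followed closer courses than others. Likeness was measured as the root mean square difference of edgeR's TMM-scaled log2 CPM (all counts as the base) after removal of each gene's mean, so smaller is closer, and it describes these libraries only. mt-Rnr1 and mt-Rnr2 differed by 0.16, ND4 and ND5 by 0.17, mt-Rnr2 and COX1 by 0.17, and ND1 and ND2 by 0.20. ND2 and COX1 were farthest apart, at 0.54.

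Outside the mitochondrial genome, among 6673 named genes above a floor on mean level, the closest to mt-Rnr2 were Scaper (0.17), Resf1 (0.17), Eprs (0.19), a cytosolic tRNA synthetase, and Nktr (0.19), where the median gene differed by 0.50. Eprs averaged 237 ± 26 TMM-scaled CPM in TfhA_4e4, 150 ± 10 in Tfh5_4e4 and 166 ± 16 in Tfh2_4e4 (SD, n = 5, 6 and 6). The closest to COX1 were the splicing regulator Rbm5 (0.16), Taf1d (0.17), the mitochondrial glutamate dehydrogenase Glud1 (0.19) and Nktr (0.20). Rbm5 averaged 95.0, 106, 143 and 148 TMM-scaled CPM in Tfh2_1e4, Tfh2_2e4, Tfh2_4e4 and Tfh2_6e4, and 184 ± 26 in TfhA_4e4 (SD, n = 5).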

How the data were processed

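The authors deposited raw counts per gene identifier for 34 libraries, which are whole numbers with no normalization. Listed without roles in the submitters' processing notes are mm10, featureCounts 1.6.4 and STAR 2.7.2b. The strand setting and the treatment of reads with several possible places are not given in the sources used here. Tables repeating the same values were not used.

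From these counts, shares per library and edgeR 4.0.16 quasi-likelihood fits (R 4.3.3; TMM scaling, filterByExpr, prior count 1, 11357 genes tested) were computed with all 6 groups in one fit. P-values were Benjamini-Hochberg adjusted over all genes tested, with a threshold of 0.05. The SE is the absolute log2 fold change divided by the square root of F. The Tfh2 slope is a contrast over the 4 group means on log2 of the number in the label. The procedure was tested on simulated data. Alternatives used limma 3.58.1 and DESeq2 1.42.0, and each library was left out in turn. Transcript sequences of GENCODE M21 were compared with blastn 2.17.0+.

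Members and gene lists were chosen with earlier results of these data known. Named nuclear genes were taken from those with the largest changes among the called genes of each list. Nothing says that replicates were separate animals or cultures, so p-values measure only the spread between these samples, which may be technical. Counting limits cover counting error only. The mean correlation between libraries with the same replicate number was 0.049. It was 0.029 for other numbers of the same replicate range and -0.035 across ranges. These values cannot decide whether replicate numbers pair the samples.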

Additional observations from a re-analysis of the deposited data

Results flagged for a closer look

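In 6 of 84 series of values, 1 library stood apart from the others of its group by Dixon's test, which by chance marks about 1 in 20 groups, and 3 libraries account for all of them. In Tfh2_1e4 the mt-Rnr1 share was 1.52% in replicate 3, below 2.35% to 2.78% in the others. In Tfh2_4e4 replicate 2 the mt-Rnr2 share was 5.36%, below 6.99% to 7.89%, and the sum of the 10 members was 9.30%, below 11.5% to 12.9%. Tfh2_2e4 replicate 6 was high in 3 mRNAs, with 0.703% for ND2 (0.399% to 0.466% in the others), 0.621% for ND4 (0.306% to 0.385%) and 0.121% for ND6 (0.0423% to 0.0608%).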

How the results depend on the processing

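The number of members called was 7 to 9 for TfhA_4e4 against Tfh2_4e4 and against Tfh5_4e4, 5 to 7 for the Tfh2 slope and 4 to 6 for Tfh2_6e4 against Tfh2_1e4 over the alternatives run, and 0 throughout for Tfh5_4e4 against Tfh2_4e4 and for Tfh2_6e4 against Tfh2_4e4. Over the same alternatives, in this order, 2264 to 4054, 2824 to 4817, 3696 to 5643, 3230 to 5224, 97 to 584 and 21 to 381 of all genes were called. For Tfh2_4e4 against Tfh2_2e4 the count of 0 became 1 in DESeq2 (1702 of all genes called) and in limma-voom (1629), 3 with the replicate range as a factor (1797), and 0 to 1 when single libraries were left out. The cause was not tested. Of 80 same-numbered pairs 15 had a correlation above 0.1, which cannot decide whether replicate numbers pair the samples, and the labels do not say. With the number as a block, ND6 passed against Tfh2_4e4 (edgeR adjusted p = 0.0189) and Tfh5_4e4 (edgeR adjusted p = 0.0371). The counts were then 9, 9, 7 and 6 in the order above, where 4054, 4807, 5643 and 5224 of all genes were called. They were 1 for Tfh2_2e4 against Tfh2_1e4 (724 of all genes) and 3 for Tfh2_4e4 against Tfh2_2e4 (1902).

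Values that changed sign were all near 0. For CYTB in Tfh5_4e4 against Tfh2_4e4 the log2 fold change was -0.00692 with replicates 4 to 6 alone, -0.0244 without Tfh2_4e4 replicate 1 and -0.00795 without Tfh5_4e4 replicate 5, with a highest value of 0.18 over the single libraries left out. For Tfh2_6e4 against Tfh2_4e4 with replicates 1 to 3 alone, mt-Rnr1 had -0.0215 and mt-Rnr2 -0.00079. For ND2 in Tfh2_2e4 against Tfh2_1e4 it was 0.13 with replicates 1 to 3 alone, 0.02 without Tfh2_1e4 replicate 5, 0.0675 without Tfh2_1e4 replicate 6 and 1.64e-05 without Tfh2_2e4 replicate 1, with a lowest value of -0.24 over the single libraries left out. The comparisons within replicates 1 to 3 and 4 to 6 were chosen after seeing the data. Scaling by library totals moved the median of all genes by -0.12 (log2) for Tfh2_6e4 against Tfh2_1e4 and split its calls into 2111 higher and 3056 lower, against 2538 and 2351, and it turned no member's direction. It gave 701 higher and 809 lower for Tfh2_4e4 against Tfh2_2e4, against 862 and 613, and 54 and 126 for Tfh2_6e4 against Tfh2_4e4, against 70 and 98, where DESeq2 called 275 genes against 168.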

Other observations

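Within groups, libraries numbered 4 to 6 had more of most mitochondrial transcripts than those numbered 1 to 3, and what these replicate numbers stand for is not in the labels. On the log2 scale the difference was 0.74 for ND6, 0.59 for ND2, 0.56 for ND4, 0.56 for ND5, 0.54 for CYTB, 0.39 for ND1, 0.33 for mt-Rnr2 and 0.25 for COX1, each with an edgeR adjusted p under 0.05. mt-Rnr1 had 0.13 (SE 0.06, edgeR adjusted p = 0.146). That is 8 of 9 members higher, where 9.64% of all genes were called higher and 17.1% in either direction.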
